A study of Mus musculus with 4 samples.

Results

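The genes described here are the 9 core genes of V(D)J recombination, Rag1, Rag2, Dntt, Dclre1c, Prkdc, Xrcc5, Xrcc6, Xrcc4 and Lig4. They were chosen by symbol for their known roles, and all 9 were found among the 21926 genes of the count tables. Their measured values were not a criterion, but earlier results of these data were known when the choice was made. Their counts were summed per library and per thymocyte stage.

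Developing T cells build their antigen receptor genes by V(D)J recombination. The lymphoid recombinase, made of RAG1 and RAG2, cuts DNA beside V, D and J segments, the ubiquitous end-joining machinery (Ku, DNA-PKcs, Artemis, XRCC4 and DNA ligase IV) rejoins the ends, and terminal transferase (TdT) adds bases at the junctions. The beta chain is rearranged in CD4-CD8- double-negative (DN) cells and the alpha chain in resting CD4+CD8+ double-positive (DP) cells. Rag genes are known to be turned down while thymocytes divide between these stages and again after positive selection.

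The study asked what the translation factor eIF4G2 does in T cell development. Unsorted thymus cells of 1 Eif4g2 flox/flox mouse without Cre (WT) and of 1 CD4-Cre; Eif4g2 flox/flox mouse (cKO) were profiled by 3-prime droplet single-cell RNA-seq on the DNBelab C4 system. Both mice are labelled as 5 weeks old, female and of the same batch, the line was kept on C57BL/6, and both carry the floxed alleles. Cd4-Cre is known to act from about the DP stage, so DN cells and cells outside the T lineage are not targeted. With 1 library per genotype no test between genotypes is possible, and every interval below is a 95% interval that covers counting error only, since amplified molecules and cells of 1 mouse are not independent replicates.

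The WT library held 18352386 molecules (UMIs) in 6012 cells and the cKO library 18056277 UMIs in 4335 cells, with medians of 1734 and 2140 UMIs per cell. Eif4g2 itself was counted at 223 UMIs per 1000000 UMIs of the cells summed (CPM) in the WT library and 274 CPM in the cKO library, and at 259 and 526 CPM in resting DP-like cells. The position of the floxed exons relative to the counted 3-prime ends is not given in the sources used here, so this count does not check the genotype. The Y-linked Eif2s3y, Uty and Kdm5d together had 2542 UMIs in the library labelled WT and 1 in the library labelled cKO, which goes against the label of female for the former. WT and cKO below therefore stand for the libraries so labelled, and sex and genotype cannot be told apart in any difference between them. The cell names are running numbers, of which 1055 occur in both libraries, and they cannot show whether cells are shared.

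Cells were placed in stages by UMIs of marker genes, none of which is one of the 9 genes. Resting DP-like cells, with Cd4 and Cd8 UMIs and few markers of division, signalling or maturity, numbered 2227 in the WT and 1603 in the cKO library. Cycling Cd8+ cells numbered 893 and 1232, signalled cells (at least 3 UMIs of Cd69, Cd5, Itm2a, Tox, Nr4a1, Egr1 and Egr2) 1020 and 578, and DN-like cells 26 and 18. The gate for mature cells (genes such as Klf2, S1pr1, Ccr7, Ms4a4b and Ms4a6b) took 975 and 494 cells, but the cell-cycle gene Pclaf was among its 10 leading genes and its cycle markers reached 2227 and 3270 CPM. The 682 and 231 of its cells with under 3 cycle-marker UMIs are called mature-marker cells below, a restriction made after seeing the data. Their mature markers reached 2016 and 1529 CPM, and their DN markers 181 and 403 CPM, so this set was not composed alike in the 2 libraries. Non-T cells, 103 and 24, were set by markers that include B-cell genes such as Cd79a, and were not shown to lack Rag expression. Their level is given only as a rough guide to free RNA. It may be too low for shallower sets, since these cells had medians of 3352 and 3261 UMIs, of which non-T markers took 480002 CPM in WT and 130341 CPM in cKO. The remaining 768 and 386 cells met no gate, and their Rag1 level was 801 and 757 CPM.

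Rag1, Rag2 and Dntt, the lymphoid genes of the set, were all highest in resting DP-like cells, and the 250 bases before their start sites are shown first. They come from RefSeq (build GRCm38.p6), where 8 of the 9 genes had an entry. Each is written in its gene's direction, and capitals mark E-boxes (CANNTG, which reads the same on both strands), the sequence bound by E proteins such as those made from Tcf3 and Tcf12.
Rag1, chr2:101649533-101649782, minus strand: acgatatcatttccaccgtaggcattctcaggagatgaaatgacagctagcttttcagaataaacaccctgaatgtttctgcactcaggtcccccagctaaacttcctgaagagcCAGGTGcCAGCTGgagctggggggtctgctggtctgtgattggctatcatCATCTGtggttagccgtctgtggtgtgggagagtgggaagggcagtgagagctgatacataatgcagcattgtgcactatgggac
Rag2, chr2:101624462-101624711, plus strand: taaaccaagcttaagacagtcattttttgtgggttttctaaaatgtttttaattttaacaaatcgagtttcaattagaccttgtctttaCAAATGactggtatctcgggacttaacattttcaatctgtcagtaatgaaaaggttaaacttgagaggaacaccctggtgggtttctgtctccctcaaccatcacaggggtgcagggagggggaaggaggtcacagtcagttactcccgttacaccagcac
Dntt, chr19:41029025-41029274, plus strand: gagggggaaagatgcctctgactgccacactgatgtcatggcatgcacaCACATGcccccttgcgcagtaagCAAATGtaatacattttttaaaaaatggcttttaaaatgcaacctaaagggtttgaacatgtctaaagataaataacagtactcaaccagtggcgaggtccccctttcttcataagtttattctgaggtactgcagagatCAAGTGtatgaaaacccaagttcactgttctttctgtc
The Rag1 and Dntt windows held 3 E-boxes each and the Rag2 window 1. That source has 32851 promoter entries, each 300 bases long, of which the first 250 bases were searched. Of these entries 66.2% held at least 1 E-box, so a match is common and marks no site by itself. The core Runx motif TGTGGT, searched on both strands, occurred 2 times in the Rag1 window, 1 of them overlapping an E-box by 2 bases, and not in those of Rag2 and Dntt, against 14.0% of all entries with at least 1 match. GATA, also searched on both strands, matched 4 times in the Rag1 entry and 1 time in each of the other two, against 53.6% of all entries.

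Rag1, which encodes the catalytic subunit of the recombinase, lies at chr2:101638282-101649501 on the minus strand (GENCODE M21, GRCm38; all gene positions and spans below come from it). It was highest in resting DP-like cells in both libraries. Its level there was 1016 CPM in the WT library (3542 UMIs, interval 983 to 1050) and 1046 CPM in the cKO library (2687 UMIs, 1007 to 1086). Signalled cells had 263 and 204 CPM, cycling cells 199 and 187 CPM, and mature-marker cells 183 and 247 CPM. All of these exceeded non-T cells, at 88.1 and 95.3 CPM, with intervals of 64.7 to 117 and 49.2 to 166 CPM. Resting DP-like cells thus stood apart from these sets, while the order among the lower sets was partly unresolved: in the WT library cycling and mature-marker cells did not differ beyond counting error (log2 ratio 0.12, interval -0.04 to 0.29), and in the cKO library signalled and cycling cells did not (0.13, -0.06 to 0.31).

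On the log2 scale Rag1 was 2.35 (2.25 to 2.45) higher in resting DP-like than in cycling cells of the WT library and 2.49 (2.40 to 2.57) higher in the cKO library. Over signalled cells the differences were 1.95 (1.82 to 2.08) and 2.36 (2.18 to 2.54), and over mature-marker cells 2.47 (2.33 to 2.62) and 2.09 (1.87 to 2.30). Over the whole mature gate, as first defined, they were 2.92 and 2.67. Cycling cells over 10000 UMIs, in which doublets were not looked for, had 108 and 127 CPM of Rag1.

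Rag2, the partner that RAG1 needs to cut DNA, lies next to Rag1 in the opposite direction (chr2:101624718-101632529, plus strand). It was also highest in resting DP-like cells, with 148 CPM in the WT library (514 UMIs) and 183 CPM in the cKO library (469 UMIs). Cycling cells had 52.5 and 62.6 CPM, signalled cells 52.4 and 37.5 CPM, and mature-marker cells 30.4 and 44.5 CPM. Non-T cells had 3 Rag2 UMIs in the WT library (5.62 CPM) and 0 in the cKO library, where a count of 0 allows up to 23.8 CPM by the floor of 3 UMIs and 29.3 CPM by the 95% interval. The excess of resting DP-like over cycling cells was 1.49 (1.28 to 1.70) in the WT and 1.54 (1.37 to 1.72) in the cKO library, smaller than that of Rag1 in both. Rag1 and Rag2 share positions with B230118H07Rik, a gene that spans both on the Rag1 strand and overlaps their exons by 80 and 208 bases. B230118H07Rik was counted at 144 and 155 CPM in resting DP-like cells against 26.9 and 30.4 CPM in cycling cells, and how reads in the shared bases were assigned is not given in the sources used here.

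Dntt, which encodes TdT (chr19:41029275-41059525, plus strand), was again highest in resting DP-like cells but differed less between stages. It had 1521 CPM in the WT library (5299 UMIs, 1480 to 1562) and 1642 CPM in the cKO library (4218 UMIs, 1593 to 1693). Cycling cells kept 845 and 889 CPM, signalled cells 557 and 522 CPM, and mature-marker cells 366 and 599 CPM. Resting DP-like cells exceeded cycling cells by 0.85 (0.79 to 0.90) and 0.89 (0.83 to 0.94) on the log2 scale, and signalled cells by 1.45 (1.36 to 1.54) and 1.65 (1.54 to 1.77). Dntt therefore had the order resting DP-like, cycling, signalled in both libraries, with each step beyond counting error. Summed Rag1 was instead higher in signalled than in cycling cells of the WT library, but this order was not kept at equal depth. With cells thinned to equal depth, as described below, mean Rag1 was 0.284 UMIs in WT cycling and 0.254 in WT signalled cells. In the sums, WT cycling cells over 10000 UMIs had 108 CPM of Rag1. The other WT cycling cells had 253 CPM (S-led) and 267 CPM (G2/M-led), near the 263 CPM of signalled cells. Non-T cells had 156 and 405 CPM of Dntt, the latter from 51 UMIs, and the signalled cells of the cKO library did not differ from them beyond counting error (log2 ratio 0.37, -0.04 to 0.81).

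The few DN-like cells gave a first look at the earlier stage. Il2ra, Notch3 and Hes1 were among their 10 leading genes, as the gate required such markers, and the leading gene outside the gate was Myl10. They held 26 and 28 Rag1 UMIs, 246 CPM (161 to 361) in the WT and 348 CPM (231 to 503) in the cKO library, with intervals that overlap. Dntt reached 1193 and 1181 CPM, while Rag2 had 6 and 3 UMIs. Resting DP-like cells exceeded DN-like cells in Dntt by 0.35 (0.09 to 0.62) in the WT and 0.48 (0.18 to 0.78) in the cKO library, on the log2 scale. The median of all genes with at least 50 UMIs was 0.63 and 0.78 in the same comparison, so Dntt lay below the median gene in each library. A wider set, the 70 and 52 cells with more DN-marker than coreceptor UMIs, had 190 and 195 CPM of Rag1 and 798 and 831 CPM of Dntt. That set also had 2024 and 1393 CPM of cycle markers, against 994 and 1181 CPM in the narrow one, and their part in its Rag1 level was not tested.

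**Figure D1:**
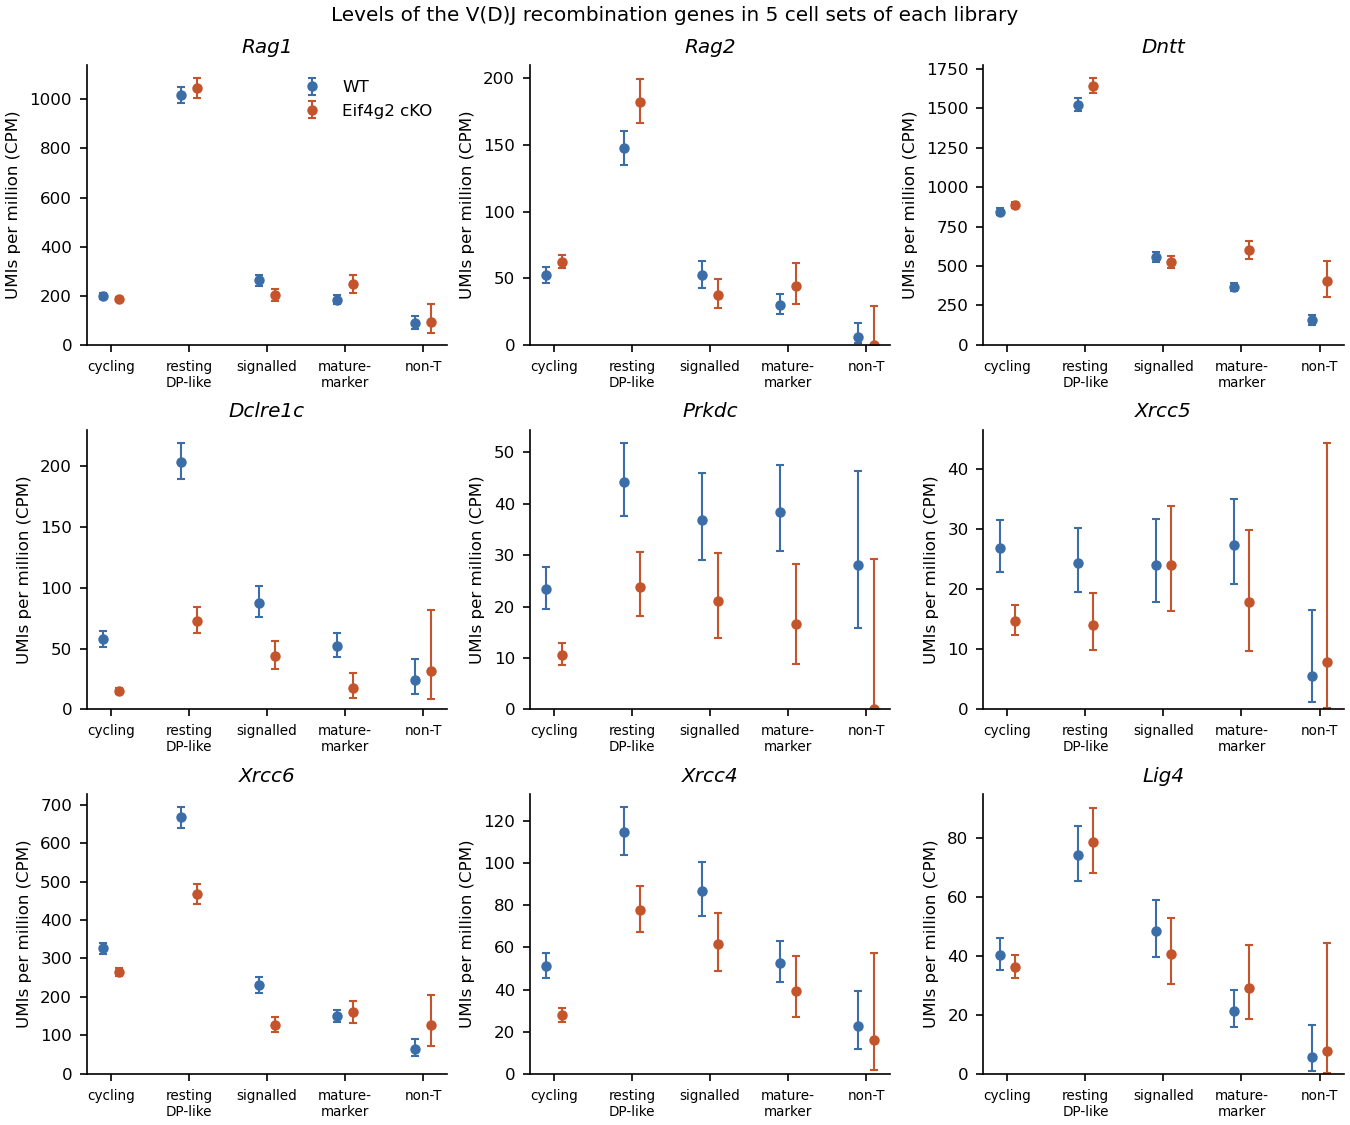
Each panel plots 1 gene, with its level in CPM (linear axis from 0) in 5 cell sets of the WT (blue) and cKO (orange) library. Points are single libraries and bars the 95% Poisson interval of the count. Rag1, Rag2 and Dntt peak in resting DP-like cells of both libraries (1016 and 1046 CPM for Rag1), while Dclre1c has the same peak but at 203 CPM in WT and 72.8 CPM in cKO, and Xrcc5 lies between 24.1 and 27.2 CPM in the 4 thymocyte sets of WT.

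Because deep cells show a gene more often, shares of cells with a UMI were compared after each cell was thinned to 1000 UMIs. No cell fell below that depth. In resting DP-like cells Rag1 was seen in 58.0% of cells (55.9 to 60.1) in the WT and 61.3% (58.9 to 63.7) in the cKO library, and Dntt in 71.0% and 76.2%. Rag2 was seen in 11.6% (10.3 to 13.0) and 16.7% (14.9 to 18.6). Unthinned resting DP-like cells, whose medians were 1405 and 1359 UMIs, showed Rag1 in 70.9% and 71.7%.

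In thinned cycling cells Rag1 was seen in 20.9% and 19.0%, and in signalled cells in 16.9% and 14.5%. Before thinning, cycling cells had reached 58.7% and 60.6% at medians of 4779 and 5769 UMIs, which shows how far depth alone moves such a share. Mature-marker cells had 18.5% and 18.6%, above the 6.80% (2.78 to 13.5) of WT non-T cells. The 24 non-T cells of the cKO library gave 12.5% with an interval of 2.66 to 32.4, too wide to set a background.

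Counts per cell were spread more widely than a Poisson count of the same mean. Thinned resting DP-like cells had a mean of 1.03 Rag1 UMIs in the WT and 1.12 in the cKO library, and the variance was 1.37 and 1.38 times the mean. Of these cells 42.0% and 38.7% had no Rag1 UMI, where a Poisson count of that mean would give 35.8% and 32.7%. For Dntt the variance was 1.49 and 1.31 times the mean, and for Rag2 1.34 and 1.13 times. Thinned cells with a Rag2 UMI held a Rag1 UMI in 66.4% (60.3 to 72.1) of cases in the WT library against 56.9% (54.7 to 59.1) of cells without Rag2, and in 66.7% (60.7 to 72.3) against 60.3% (57.6 to 62.9) in the cKO library. For Rag2 and Dntt no such excess was seen in either library; in the cKO library Rag2 was found in 16.0% of cells with Dntt and 18.8% of those without. These are descriptions over cells of 1 mouse each.

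Rag1 was lower in cells with more signal-marker UMIs. Thymocytes thinned to 1000 UMIs, with a Cd4 or Cd8 UMI, under 3 cycle-marker UMIs and outside the mature gate, were binned by their UMIs of the signal markers. In the WT library Rag1 was 983 CPM in the 2387 cells with none, 832 CPM with 1, 581 CPM with 2, 436 CPM with 3, 294 CPM with 4 to 5 and 86.6 CPM with 6 or more. The last value lies at the level of non-T cells. The cKO library started at 1069 CPM and passed through 763 and 579 CPM to 141 CPM with 3 signal UMIs (92 cells), 168 CPM with 4 to 5 and 75.3 CPM with 6 or more (93 cells). At 3 signal UMIs the intervals of the libraries did not overlap (347 to 541 CPM in WT, 75.2 to 242 CPM in cKO), whereas in each of the other bins they did.

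Dntt went over the same bins from 1511 to 338 CPM in WT and from 1559 to 484 CPM in cKO, a smaller relative difference than that of Rag1 in both. Rag2 went from 138 to 26.0 CPM in WT and from 181 to 21.5 CPM in cKO, on 2 to 6 UMIs in the last bin. Xrcc6 was also lower in each of the last 2 bins than in the first, going from 659 to 165 CPM in WT and from 483 to 129 CPM in cKO between the first and the last. Xrcc4, by contrast, stayed between 92.7 and 130 CPM in all WT bins.

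Rag1 was also lower in cells with more cycle-marker UMIs, binned among cells with under 3 signal-marker UMIs. In the WT library it was 915, 951 and 703 CPM with 0, 1 and 2 cycle UMIs, then 282 CPM with 3, 179 CPM with 4 to 5 and 218 CPM with 6 or more. The cKO library gave 997, 979 and 688 CPM, then 373, 216 and 260 CPM. Dntt moved over the same bins from 1445 to 985 CPM in WT and from 1483 to 1081 CPM in cKO. Among cycling cells of at most 10000 UMIs, cells led by S-phase markers had 253 and 193 CPM of Rag1 and cells led by G2/M markers 267 and 273 CPM, so the low level was present in both parts of the cycle.

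**Figure D2:**
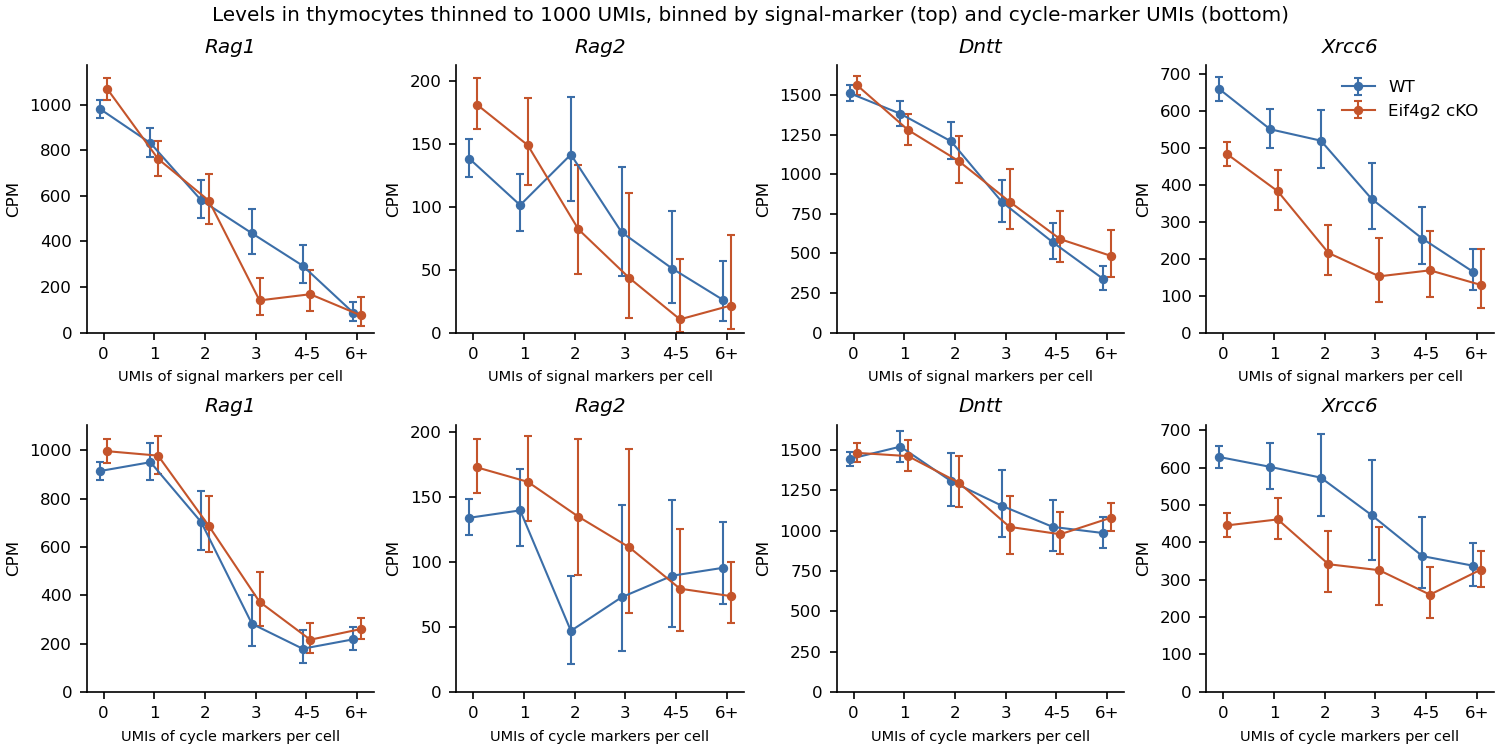
Levels of Rag1, Rag2, Dntt and Xrcc6 (CPM, linear axes from 0) in thymocytes thinned to 1000 UMIs each, binned by their UMIs of signal markers (top) or cycle markers (bottom), in the WT (blue) and cKO (orange) library. Points are sums over the cells of a bin and bars 95% Poisson intervals. Rag1 goes from 983 to 86.6 CPM over the signal bins of the WT library, and from 703 to 282 CPM between 2 and 3 cycle UMIs.

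The end-joining genes are expressed in all cell types, yet most were likewise highest in resting DP-like cells, though not each by more than counting error. Dclre1c encodes Artemis, the nuclease that opens the hairpins RAG leaves on coding ends (chr2:3424131-3464130, plus strand). In the WT library it had 203 CPM in resting DP-like cells (709 UMIs), 87.7 in signalled, 57.7 in cycling and 52.2 in mature-marker cells, with resting DP-like above signalled cells by 1.21 (0.98 to 1.45) on the log2 scale. In the cKO library the same sets had 72.8, 43.5, 15.2 and 17.8 CPM. Prkdc, which encodes DNA-PKcs, the kinase that recruits and activates Artemis (chr16:15637866-15842235, plus strand), had 44.2 CPM in WT and 23.7 CPM in cKO resting DP-like cells. It did not differ beyond counting error between resting DP-like, signalled and mature-marker cells of either library, and was lower than in resting DP-like cells in the cycling gate, at 23.3 and 10.5 CPM. This did not hold for S-led cycling cells of the WT library, which had 41.6 CPM (resting DP-like over S-led 0.09, -0.42 to 0.63).

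Xrcc6 and Xrcc5 encode Ku70 and Ku80, the ring that first binds a broken end. Xrcc6 (chr15:81987835-82040085, plus strand) had 667 CPM in WT resting DP-like cells (2323 UMIs), 326 in cycling, 230 in signalled and 150 in mature-marker cells. In cKO these were 467, 264, 128 and 160 CPM. Xrcc5 (chr1:72307421-72394952, plus strand) had no such peak: in the WT library these 4 sets lay between 24.1 and 27.2 CPM, and no neighbours in that order differed beyond counting error. In the cKO library it had 14.0 CPM in resting DP-like, 14.7 in cycling, 17.8 in mature-marker and 24.0 in signalled cells, and resting DP-like cells lay below signalled cells by a log2 ratio of -0.78 (-1.50 to -0.04). In WT the few DN-like cells had more, 94.7 CPM (10 UMIs), and resting DP-like over DN-like cells was -1.96 (-2.91 to -0.85). Over the wider DN set of WT it was -1.05 (-1.72 to -0.33), with 50.5 CPM in that set. In cKO no such difference was resolved. DN-like cells there had 24.9 CPM from 2 UMIs, under the floor of 3 UMIs. The cKO ratios were -0.83 (-2.78 to 2.27) over DN-like cells and -0.36 (-1.55 to 1.06) over the wider set. Resting DP-like over cycling cells of the WT library was -0.14 (-0.54 to 0.25) for Xrcc5 against 1.03 (0.94 to 1.12) for Xrcc6, so the genes of the 2 Ku subunits had different stage patterns at the RNA level. Xrcc6 overlaps Desi1, on the other strand, by 344 exonic bases, and Desi1 was counted at 631, 291 and 250 CPM in resting DP-like, cycling and signalled cells of the WT library, the same order as Xrcc6. Whether counting used strand is not given, so part of either count may belong to the other gene.

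Xrcc4 and Lig4 encode the scaffold and the enzyme of the final ligation. Xrcc4 (chr13:89774027-90089608, minus strand) had 115 CPM in WT resting DP-like cells (399 UMIs), 86.8 in signalled, 52.7 in mature-marker and 51.3 in cycling cells. The cKO values were 77.5, 61.5, 39.4 and 27.9 CPM. Lig4 (chr8:9969049-9977686, minus strand) had 74.3, 48.6, 21.4 and 40.4 CPM in WT and 78.6, 40.5, 29.2 and 36.3 CPM in cKO for the same sets, highest in resting DP-like cells of both libraries by more than counting error. For Xrcc4 the excess over signalled cells was 0.40 (0.14 to 0.66) in WT but 0.33 (-0.04 to 0.72) in cKO, where the interval includes 0. Tmem167 shares 112 exonic bases with Xrcc4 and Suv39h2 357 with Dclre1c, each on the other strand. Suv39h2 had only 15 and 11 UMIs in resting DP-like cells.

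Counted together, 8 of the 9 genes were higher in resting DP-like than in cycling cells by over 0.5 on the log2 scale in each library, Xrcc5 being the exception. Among all genes with at least 50 UMIs this held for 50.9% in the WT and 54.7% in the cKO library. Over signalled cells 6 of 9 were higher in each library, where 18.4% and 21.2% of all genes were, and over mature-marker cells 7 and 8 of 9, where 41.9% and 43.7% were. The median of all genes was 0.52 and 0.60 for resting DP-like over cycling cells and 0.12 and 0.17 for resting DP-like over signalled cells. Rag1, at 2.35 and 2.49, lay well above the first pair of medians, while Dntt at 0.85 and 0.89 lay near it.

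Across the 10 stage-by-library values (log2 of CPM plus 10), Rag1 followed Rag2 with a Pearson r of 0.89, Lig4 with 0.90, Xrcc6 with 0.82 and Dntt with 0.80, and Xrcc5 with -0.25. Among 8829 genes with at least 200 UMIs, those most like Rag1 were Psap (r = 0.95), Usp21 (0.94), Grik2 (0.93), B230118H07Rik (0.93) and Pip4p1 (0.92). The genes most like Dntt were Desi1 (0.92), Dgcr6 (0.92), Gas8 (0.92), Idh2 (0.87) and Amer1 (0.87). B230118H07Rik overlaps Rag1 and Rag2, and Desi1 overlaps Xrcc6. The points include the whole mature gate and the DN-like cells, where Lig4 had 3 and 5 UMIs and Rag2 6 and 3. They share libraries, depth and gates, and the coefficients are given as descriptions.

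Between genotypes, Rag1, Dntt and Lig4 differed little in resting DP-like cells, Rag2 was higher in the cKO library and 5 of the 6 end-joining genes were lower. On the log2 scale of cKO over WT, Rag1 was 0.04 (-0.03 to 0.11), Dntt 0.11 (0.05 to 0.17), Lig4 0.08 (-0.19 to 0.35) and Rag2 0.31 (0.12 to 0.49). Dclre1c was lowest at -1.48 (-1.72 to -1.25). Prkdc was -0.90 (-1.35 to -0.46), Xrcc5 -0.80 (-1.40 to -0.22), Xrcc4 -0.56 (-0.82 to -0.31) and Xrcc6 -0.51 (-0.62 to -0.41). So 5 of 9 genes were lower by more than 0.5, against 30.4% of all 8290 genes counted, and 0 of 9 were higher, against 8.4%.

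The median of all genes was itself -0.19 in these cells. Relative to it Rag1 was 0.23, Rag2 0.50 and Dntt 0.30 higher, while Dclre1c was -1.29, Prkdc -0.71 and Xrcc5 -0.61. Centred that way 20.4% of all genes were lower and 17.1% higher, and 3 of the 9 genes were lower. With totals taken without mitochondrial and ribosomal protein genes the shares were 24.2% and 13.3%, again with 3 of the 9 lower.

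The ratio also moved with the annotated span of a gene. In resting DP-like cells the median of all genes was 0.22 for spans up to 5 kb, 0.06 for 5 to 20 kb, -0.32 for 20 to 100 kb and -0.78 above 100 kb, where 75.1% of genes were lower by more than 0.5. Of the 9 genes, Rag2 (7.81 kb), Lig4 (8.64 kb) and Rag1 (11.2 kb) were near 0 or above, and Xrcc5 (87.5 kb), Prkdc (204 kb) and Xrcc4 (316 kb) were below. Against their own span class Prkdc was -0.11, Xrcc6 -0.19 and Xrcc4 0.22, so their lower level was close to or above that of genes as long. Dclre1c (40.0 kb) was at -1.16 against its class median, and its ratio of -1.48 lay below the 10th percentile of that class, -0.94. Dntt (30.3 kb) was 0.43 and Xrcc5 -0.48 from the class median. Of the 9 genes only Dclre1c was lower by more than 0.5 on this scale, where 14.3% of all genes were.

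The same order of span classes was found in the DN-like and non-T sets. Both sets were small, with 26 and 18 DN-like cells and 103 and 24 non-T cells. Non-T cells also held 156 and 405 CPM of Dntt, so RNA of cells that Cd4-Cre targets may be counted in them. The part of such RNA in this order was not tested. In DN-like cells the medians ran from 0.22 up to 5 kb to -1.26 above 100 kb (24 genes), and in non-T cells from 0.82 to -0.17. Dclre1c had 9 and 2 UMIs in the DN-like cells (log2 -1.78, -5.03 to 0.49), too few to place. In the wider DN set it had 28 UMIs in the WT and 5 in the cKO library (59.0 and 12.8 CPM, log2 -2.20, -3.93 to -0.81), but that set was not free of coreceptors, with Cd8 at 196 and 151 CPM. In non-T cells it had 13 and 4 UMIs (24.4 and 31.8 CPM).

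**Figure D3:**
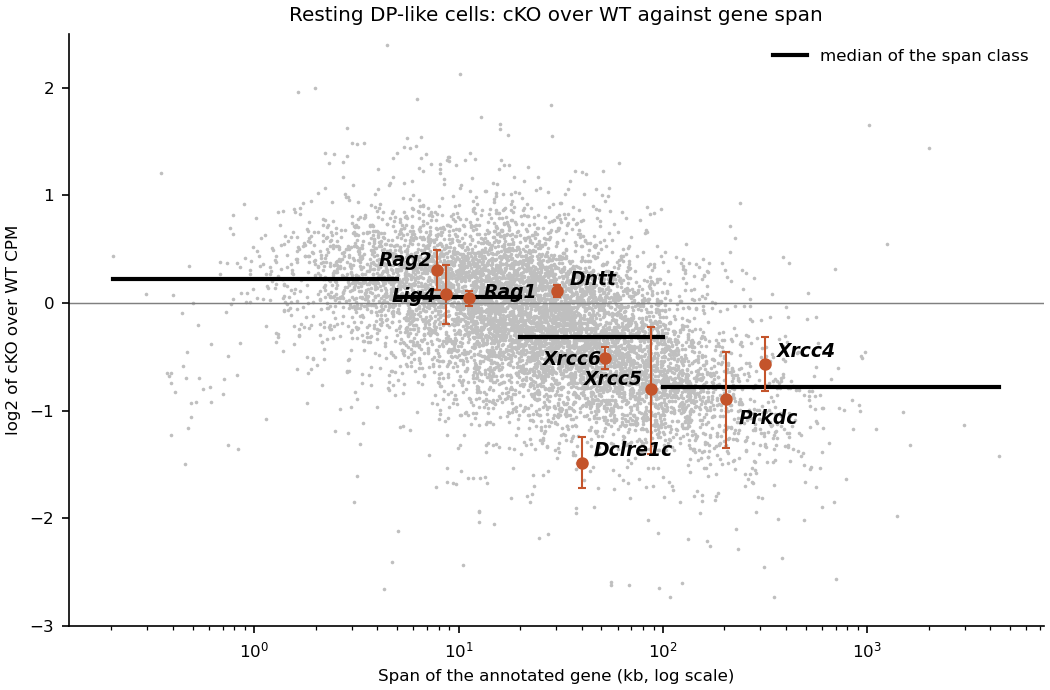
Log2 ratio of cKO over WT CPM in resting DP-like cells (vertical axis) against the span of the annotated gene (horizontal log axis, kb). Grey points are 8278 genes with at least 50 UMIs (7 more lie beyond the axis), black lines the medians of the 4 span classes, and orange points the 9 genes with 95% counting intervals. Dclre1c, at -1.48, lies far below the line of its class at -0.32, while Prkdc and Xrcc4 lie near that of genes above 100 kb at -0.78.

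Dclre1c was lower in the cKO library in the other 3 stages too: -1.92 (-2.22 to -1.63) in cycling, -1.01 (-1.46 to -0.58) in signalled and -1.55 (-2.47 to -0.75) in mature-marker cells. Prkdc followed with -1.15 (-1.54 to -0.76), -0.81 (-1.49 to -0.17) and -1.22 (-2.18 to -0.37). Against its span class, however, Prkdc was only -0.18 in cycling and 0.04 in signalled cells, where Dclre1c was -1.52 and -0.64. In mature-marker cells the median of genes above 100 kb was -0.97. In cycling cells Xrcc4 was -0.88 (-1.13 to -0.63) and Xrcc5 -0.87 (-1.22 to -0.53), which makes 4 of 9 genes lower there against 35.6% of all genes. Against their span classes these were 0.09 for Xrcc4 and -0.47 for Xrcc5. In signalled cells 3 of 9 were lower, Dclre1c, Xrcc6 and Prkdc, against 33.7%. Lig4 had an interval that includes 0 in each of these stages. The all-gene medians were -0.28 in cycling and -0.24 in both signalled and mature-marker cells.

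Outside the resting DP-like cells the ratio of Rag1 varied by stage. In cycling cells it was -0.09 (-0.20 to 0.01) for Rag1 and 0.25 (0.05 to 0.46) for Rag2. In signalled cells Rag1 was -0.37 (-0.58 to -0.15) and Rag2 -0.48 (-0.99 to 0.01), with signal markers at 4299 CPM in the WT and 3367 CPM in the cKO library. In mature-marker cells Rag1 was 0.43 (0.18 to 0.68), Rag2 0.55 (-0.08 to 1.16) and Dntt 0.71 (0.54 to 0.87). There 2 of 9 genes, Rag2 and Dntt, were higher by more than 0.5, against 9.79% of all genes, and 3 of 9, Dclre1c, Prkdc and Xrcc5, were lower, against 35.1%. Mature markers were lower and DN markers higher in that cKO set, as given above, and non-T cells of the cKO library had 405 CPM of Dntt. The part of these in the higher Rag1 and Dntt values was not tested.

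**Figure D4:**
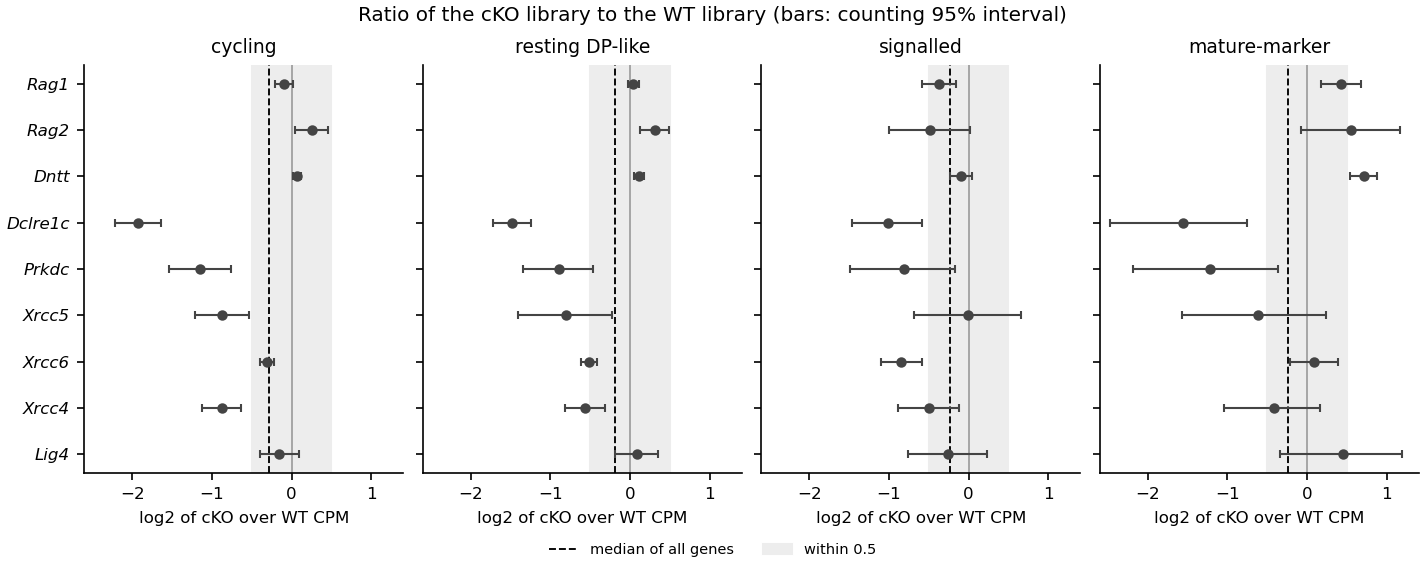
Log2 ratio of cKO over WT CPM for the 9 genes (rows) in cycling, resting DP-like, signalled and mature-marker cells (panels), with 95% counting intervals. The dashed line is the median of all genes and the grey band marks ratios within 0.5. Dclre1c and Prkdc lie left of the band in all 4 panels, and Dntt leaves it only in mature-marker cells, at 0.71. The medians of the span classes, which were low for long genes such as Prkdc, are not drawn.

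Other genes of break repair were set beside the 9, from a list of 22 end-joining and damage-response genes. In resting DP-like cells 19 had enough UMIs, 7 were lower by more than 0.5 and 3 higher, against the same 30.4% and 8.4% of all genes, with a median of -0.41. The lower ones were Mre11a (-1.11) and Rad50 (-0.95), parts of the break-sensing MRN complex, Polm (-1.04), an end-joining polymerase, Rnf168 (-0.89), Mdc1 (-0.69) and Trp53bp1 (-0.66), which act on chromatin around breaks, and the repair scaffold Xrcc1 (-0.51). The interval of Trp53bp1, -1.36 to 0.01, includes 0. The 7 lower ratios are not centred on span classes. In these cells 12.2% of genes of 5 to 20 kb, 36.3% of 20 to 100 kb and 75.1% above 100 kb were lower. The higher ones were the histone gene H2afx (0.85), the replicative ligase gene Lig1 (0.82) and Hmgb2 (0.56), a DNA-bending protein that aids RAG cutting. H2afx had 130 and 234 CPM. Cycle markers in the resting DP-like gate were 222 CPM in the WT and 310 CPM in the cKO library, and their part in the higher H2afx and Lig1 values was not tested.

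Of 13 factors known to bind the Rag locus or to accompany Rag expression, 6 were lower by more than 0.5 in resting DP-like cells of the cKO library and 0 were higher, with a median of -0.47, against 30.4% and 8.4% of all genes and a median of -0.19. They were Runx1 (-1.54, 513 and 176 CPM), Tcf12 (-1.07), Foxp1 (-0.98), Bcl11b (-0.96), Ikzf1 (-0.86) and Ets1 (-0.63). Each spans 87.9 kb or more, and against their span class they ranged from -0.76 for Runx1 to 0.15 for Ets1. In the same gate Rag1 was 0.04 and Rag2 0.31, also as sums over cells. Whether the values of the factors and of the Rag genes are related was not tested. Ptcra, the pre-TCR alpha chain gene that precedes alpha-chain rearrangement, was -0.74 (63.7 and 38.2 CPM). The receptor constant-region genes were looked for by symbol and were not found among the genes counted.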

How the data were processed

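The deposited UMI counts of the cDNA libraries of 1 WT and 1 Eif4g2 cKO mouse were used; the oligo libraries have no gene counts of their own here. The authors made the counts with dnbc4tools (version 2.1.3 in the design text, 3.0 in the matrix header) and the submitters' processing notes name the mm10 build; the strand setting and annotation are not given in the sources used here. Of the gene identifiers 97.9% match GENCODE M21 with the same version. Cells with at least 50 genes and at most 10% mitochondrial UMIs were kept, and no doublet caller was run. Stages were set in a fixed order by marker UMIs (non-T, cycling and signalled at least 3, mature and DN at least 2). UMIs were summed per library and stage and scaled to counts per 1000000 UMIs (CPM), with exact Poisson intervals. Ratios of 2 sums have exact conditional binomial intervals and shares of cells Clopper-Pearson intervals. A gene was counted as higher or lower past 0.5 on the log2 scale with at least 50 UMIs over both sums, and a floor of 3 UMIs was used for counts of 0. Python 3.11.15, numpy 2.4.6, scipy 1.17.1 and pandas 2.3.3 were used. The ratio intervals were tested on simulated Poisson counts only, which lack the wider spread between cells described above. The genes named are all 9 members, members of the other lists past 0.5 in resting DP-like cells, and the 5 genes most like Rag1 and Dntt. The members, lists and gates were chosen with earlier results of these data known. A marker gene, a factor gene and an alternative gate are not reported here. Alternatives were other cell filters, gates, thinning, scaling, centring and low-count filters.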

Additional observations from a re-analysis of the deposited data

Results flagged for a closer look

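For Rag1 the ratio of cKO to WT pointed in opposite directions in different stages. It was -0.37 on the log2 scale in signalled cells and 0.30 in the whole mature gate, with counting intervals that exclude 0 on either side. In mature-marker cells with under 3 cycle UMIs it was 0.43. For Xrcc6 the ratio was -0.51 in resting DP-like cells, -0.30 in cycling cells and -0.84 in signalled cells, but 0.23 in the whole mature gate. In the mature-marker cells it was 0.09 with an interval of -0.22 to 0.39. With 1 library per genotype the differences between stages were not tested, and the mature gate held cycle markers at 2227 CPM in the WT and 3270 CPM in the cKO library.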

How the results depend on the processing

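No paired analysis was possible because each genotype has 1 library, and for the same reason no library could be left out. Of 158 recomputed values 111 stayed within their counting interval or within 1.5 times the main count, 46 moved and 1 changed sign: Xrcc4 cKO over WT, -0.56, was 0.22 when centred on the median of its span class. The cause was not tested. All values here are log2 ratios unless given as counts.

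In resting DP-like cells, cKO over WT for Rag1 (0.04) was 0.16 with totals that leave out mitochondrial and ribosomal protein genes and 0.23 when centred on the median of all genes. Rag2 (0.31) was 0.50 when centred on that median. Dntt (0.11) was 0.0015 after thinning, 0.23 with those totals, 0.30 when centred on that median and 0.43 when centred on its span class. Of the 9 genes, 5 were lower by more than 0.5, but 3 with those totals, 3 when centred on the median and 1 when centred on span classes; 0 were higher in all 12 alternatives.

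The excess of Rag1 in resting DP-like over cycling cells kept its sign throughout. In the WT library (2.35) it was 2.19 after thinning, 2.49 with marker minimums raised by 1, 1.96 with a stricter cell filter (no cell over 10000 UMIs or 3% mitochondrial), 2.19 with those totals, 1.83 centred on the median, 1.90 as a mean over cells, and 2.01, 1.93 and 3.24 against S-led, G2/M-led and over-10000-UMI cells. In the cKO library (2.49) it was 2.06 after thinning, 2.11 with that filter, 2.31 with those totals, 1.89 centred, 2.10 as a mean over cells, and 1.94 and 3.04 against G2/M-led and over-10000-UMI cells.

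Over the whole mature gate Rag1 was 2.92 higher in the WT library and, in the same order up to the mean over cells, 2.43, 3.51, 2.57, 2.66, 2.48 and 2.17, and 2.47 with under 3 cycle UMIs. In the cKO library (2.67) the values were 2.19, 2.94, 2.12, 2.41, 2.10, 2.19 and 2.09. The span classes, the split of the cycling cells, the limit on cycle UMIs and the wider DN set were chosen after seeing the data. In the few DN-like cells several of the 9 genes had under 10 UMIs.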
